A study of Homo sapiens with 9 samples.

Results

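NRF2, the transcription factor encoded by NFE2L2, and its antioxidant targets were followed after knockdown of ASAH1 in MDA-MB-231, a human cell line derived from a triple-negative breast tumor. ASAH1 encodes acid ceramidase, the lysosomal enzyme that splits ceramide into sphingosine and a fatty acid. The set was named by gene symbol and holds 10 of the 26485 genes of the deposited tables: NFE2L2, its inhibitor KEAP1 and the targets NQO1, HMOX1, GCLC, GCLM, TXNRD1, SRXN1, OSGIN1 and ME1. The 9 libraries came from cells that stably carried a nonspecific (NS) shRNA (3 libraries), ASAH1 shRNA #1 (3 libraries) or ASAH1 shRNA #2 (3 libraries), grown in serum-containing medium, so every group carried a hairpin. The question put to these genes was whether loss of ASAH1 moved them, and whether both hairpins moved them alike. The values are normalized counts, that is, reads per gene divided by a size factor for each library.

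NRF2 is held low in resting cells by KEAP1, which bridges it to the CUL3 ubiquitin ligase for degradation by the proteasome. Electrophiles and oxidants modify cysteines of KEAP1, NRF2 then escapes degradation, pairs with a small MAF protein and binds antioxidant response elements (AREs) near its target genes. The targets build glutathione, reduce thioredoxin, quinones and peroxiredoxins, degrade heme and supply NADPH. Because NRF2 is controlled mostly at the level of the protein, the mRNA of NFE2L2 does not measure its activity.

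The ARE is the DNA element that the targets are known to share, so the 2000 bases upstream of each RefSeq gene start in hg38 were searched on both strands for the core TGACNNNGC and for TGACTCAGC, which contains the AP-1 motif TGACTCA. A RefSeq start was found for 9 members, all but HMOX1. The core occurred upstream of 7 of these 9 members and of 55.1% of all genes searched. The longer form occurred upstream of 2 of the 9, NQO1 and ME1, and of 3.18% of all genes. The matches below show both longer forms and 4 core matches of targets or of KEAP1, with the matched bases in capitals, each read 5′ to 3′ on the strand that carries the motif, and with the distance from the motif to the start.
NQO1, chr16:69726997-69727025, minus strand, 447 bases upstream: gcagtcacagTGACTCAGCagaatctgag
ME1, chr6:83431170-83431198, minus strand, 129 bases upstream: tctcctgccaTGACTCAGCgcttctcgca
GCLM, chr1:93909446-93909474, plus strand, 26 bases upstream: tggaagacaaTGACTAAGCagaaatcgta
KEAP1, chr19:10502784-10502812, plus strand, 23 bases upstream: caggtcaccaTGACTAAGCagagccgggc
TXNRD1, chr12:104215670-104215698, plus strand, 91 bases upstream: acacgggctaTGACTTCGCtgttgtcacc
OSGIN1, chr16:83952673-83952701, plus strand, 549 bases upstream: agacaatctgTGACTTGGCcccagttttc
GCLM and KEAP1 carried the same 9 matched bases. In GENCODE v44 the motifs of ME1 and TXNRD1 lay outside the gene, that of NQO1 lay outside NQO1 in an exon of the divergent transcript NQO1-DT, those of GCLM and KEAP1 touched exons annotated as UTR, and that of OSGIN1 lay in an intron of a longer annotated form. No match was found in the windows of NFE2L2 and SRXN1. A match is a description of the letters, and occupancy was not measured.

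The libraries held between 23806003 and 49659106 reads on genes. ASAH1 itself went from 4489 ± 45.4 with NS shRNA to 1327 ± 51.9 with shRNA #1, and from 4852 ± 57.9 to 783 ± 22.6 with shRNA #2 (SD, n = 3 each). The 2 tables carry their own size factors, so the same NS libraries read 1.08 to 1.09 times higher in the second. Reads were present for all 5 markers of the line (VIM, CD44, KRT8, KRT18 and EGFR), and of the 3 receptor genes that are low in triple-negative tumors ESR1 and PGR had at most 2 reads in a library. The other, ERBB2, had between 1530 and 3581 reads in a library and was lower with both hairpins (log2 fold change -0.69 and -0.42). Among the line markers, KRT8 (-1.50 and -0.77) and VIM (-0.27 and -0.67) were also lower with both hairpins, and EGFR was higher (1.18 and 1.29). KRT18 fell with shRNA #1 (-0.78) but did not pass with shRNA #2, and CD44 passed with neither. Of 6 markers of other cell types, CD3E had 0 reads in the NS libraries and at most 3 in a hairpin library, and the 6 together came to between 3.1 and 3.49 CPM with NS shRNA, 1.68 and 2.81 CPM with shRNA #1 and 1.23 and 1.94 CPM with shRNA #2, with at most 102 reads of a gene in a library. All 10 members passed the minimum mean normalized count of 10 in both tables.

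With shRNA #1, 3 members rose (NFE2L2, HMOX1 and OSGIN1) and 5 fell (KEAP1, NQO1, GCLC, GCLM and TXNRD1), while SRXN1 and ME1 did not pass the test (limma, adjusted p below 0.05). Among all 14341 genes tested, 32.8% were called higher and 33.3% lower, beside 30% and 50% of the members. The 5 lower members became 3 without NS replicate 2, where KEAP1 and TXNRD1 no longer passed. With shRNA #2, 7 members rose (NFE2L2, NQO1, GCLC, GCLM, TXNRD1, SRXN1 and OSGIN1) and KEAP1, HMOX1 and ME1 did not pass. Among all 14250 genes tested, 33.5% were called higher and 33.4% lower, beside 70% and 0% of the members. The count of 0 lower members was also 0 at an unadjusted p under 0.05 and 0 with edgeR and with DESeq2, but 1 with upper quartile rescaling, where HMOX1 passed as lower. The median change of the members, on the log2 scale, came to -0.13 with shRNA #1 and to 0.23 with shRNA #2, against 0.0013 and 0.01 over all genes. Their median absolute change was 0.21 and 0.23, below the 0.37 and 0.40 of all genes. Both comparisons share the NS libraries, so they are not independent of each other. When the libraries were scaled by total reads instead, a setting added after the data had been seen, the median of all genes with shRNA #2 shifted to -0.12. Under that scaling 4 members were higher (GCLC, GCLM, TXNRD1 and OSGIN1), HMOX1 was lower, and 38.1% of all called genes were higher instead of 50.1%.

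**Figure D1:**
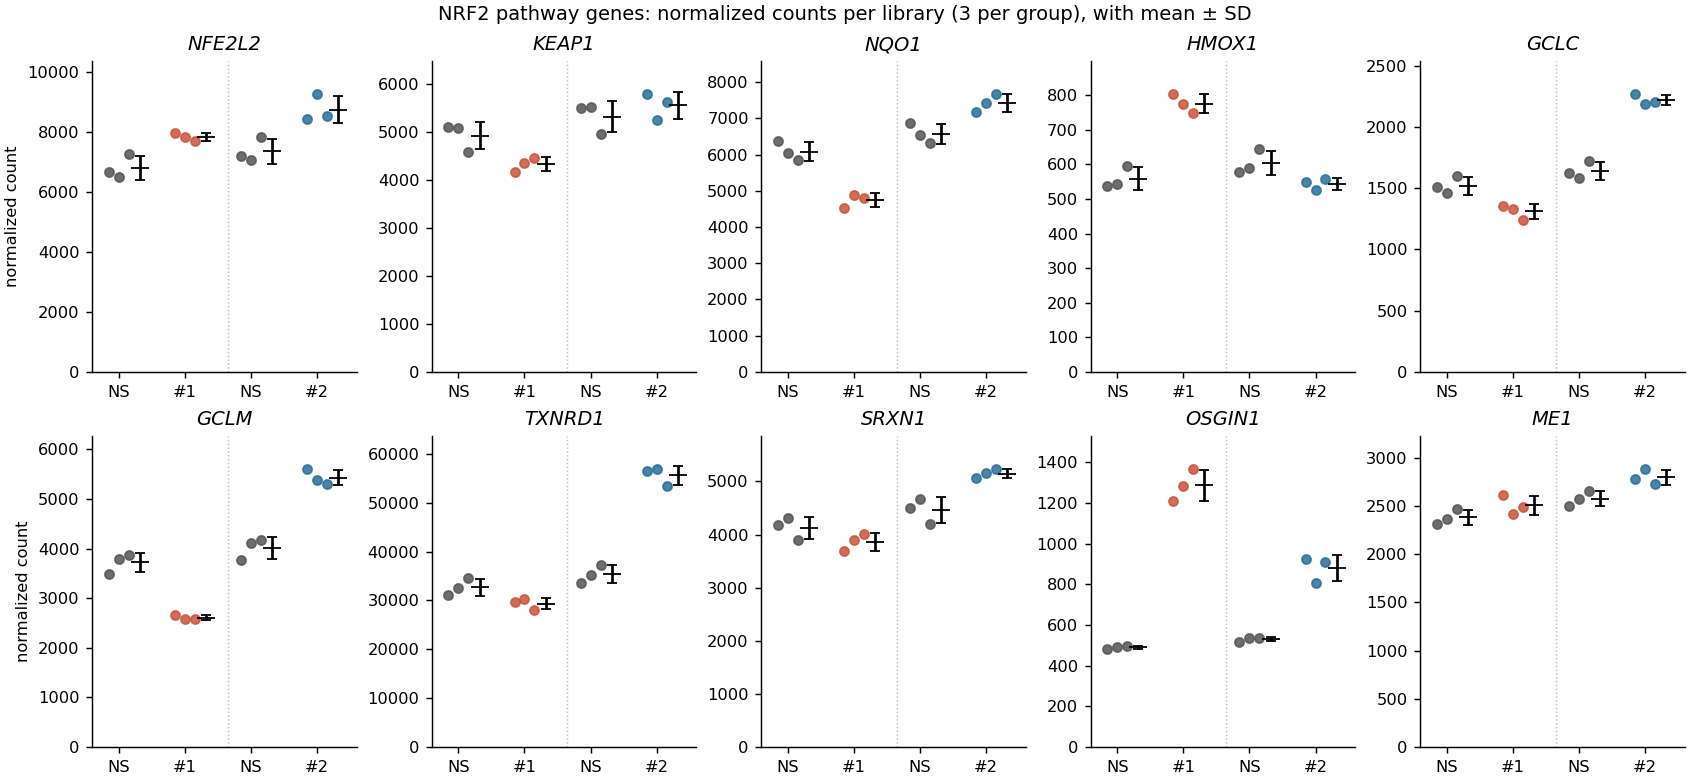
Normalized counts (y axis, from 0) of each of the 10 genes in every library. Points are libraries, black bars the mean ± SD of 3 libraries, and the dotted line parts the shRNA #1 table (left) from the shRNA #2 table (right). TXNRD1 lay between 53463 and 56834 with shRNA #2, above all NS libraries, and OSGIN1 lay above its NS libraries with both hairpins.

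NFE2L2 lies on chr2:177218667-177392756 of hg38, minus strand, with 5 exons in its reference transcript. Its normalized counts were 6672, 6511 and 7265 with NS shRNA and 7983, 7844 and 7701 with shRNA #1. In the other table they were 7199, 7068 and 7833 with NS shRNA and 8449, 9269 and 8562 with shRNA #2. Every knockdown library lay above every NS library of its table. NFE2L2 rose by 0.20 on the log2 scale with shRNA #1 (standard error 0.05, adjusted p = 0.006) and by 0.25 with shRNA #2 (standard error 0.06, adjusted p = 0.00385). The direct comparison of the hairpins (edgeR on the reads of all 9 libraries) gave 0.04 (standard error 0.05, adjusted p = 0.568). Scaled by total reads, the rise with shRNA #2 was 0.12 and no longer passed (adjusted p = 0.129, the highest of 17 alternatives, the lowest being 0.000962). Exons of other genes overlap NFE2L2 on both strands in GENCODE v44, AGPS and HNRNPA3 on the opposite strand, and the authors counted with the strand.

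KEAP1, the substrate adaptor that holds NRF2 low, lies on chr19:10486125-10503558, minus strand, with 6 exons. Its counts were 5090, 5075 and 4588 with NS shRNA and 4169, 4342 and 4459 with shRNA #1, which left all 3 knockdown libraries below the controls. With shRNA #2 they were 5778, 5244 and 5620 beside NS values of 5492, 5509 and 4946, and the groups overlapped. KEAP1 fell by 0.18 with shRNA #1 on the log2 scale (standard error 0.06, adjusted p = 0.0145). Without NS replicate 2 or shRNA #1 replicate 1 this call was lost (adjusted p = 0.0633 and 0.057, from 0.00214 to 0.0658 over 17 alternatives). The value with shRNA #2 was 0.06 (adjusted p = 0.403). Between the hairpins the difference was 0.24 (standard error 0.06, adjusted p = 0.00418 from edgeR), or 0.10 (adjusted p = 0.153) with the libraries scaled by total reads, and adjusted p started at 0.00033 over 13 alternatives.

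GCLC and GCLM, the catalytic and modifier subunits of glutamate-cysteine ligase, which makes the rate-limiting step of glutathione synthesis, were lower with shRNA #1 and higher with shRNA #2. GCLC (chr6:53497341-53616970, minus strand, 16 exons) had counts of 1506, 1456 and 1599 with NS shRNA and 1357, 1333 and 1240 with shRNA #1. In the other table it had 1625, 1581 and 1724 with NS shRNA and 2265, 2184 and 2205 with shRNA #2. The 3 knockdown libraries thus lay all below the controls with the first hairpin and all above them with the second. GCLC fell by 0.21 with shRNA #1 (standard error 0.06, adjusted p = 0.0112) and rose by 0.43 with shRNA #2 (standard error 0.06, adjusted p = 9.18e-05). In GENCODE v44 an unnamed gene shares exon sequence with GCLC on the same strand, and reads in the shared part cannot be told apart.

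GCLM (chr1:93885199-93909456, minus strand, 7 exons) had counts of 3493, 3786 and 3880 with NS shRNA and 2664, 2574 and 2586 with shRNA #1. Its counts were 3770, 4110 and 4183 with NS shRNA and 5596, 5382 and 5304 with shRNA #2. As for GCLC, the groups did not overlap in either table and were apart in opposite directions. GCLM fell by 0.51 with shRNA #1 (standard error 0.05, adjusted p = 2.43e-05) and rose by 0.43 with shRNA #2 (standard error 0.06, adjusted p = 7.47e-05). Set directly against shRNA #1, shRNA #2 was higher by 0.93 for GCLM (standard error 0.05, adjusted p = 5.25e-08) and by 0.64 for GCLC (standard error 0.05, adjusted p = 1.5e-06, both from edgeR). GCLM thus had 1.91 times and GCLC 1.55 times the level of the shRNA #1 libraries.

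TXNRD1, the cytosolic selenoenzyme that reduces thioredoxin with NADPH, lies on chr12:104215779-104350307, plus strand, with 17 exons. Its counts were 31066, 32498 and 34575 with NS shRNA and 29734, 30264 and 28006 with shRNA #1. They were 33521, 35277 and 37279 with NS shRNA and 56526, 56834 and 53463 with shRNA #2. The shRNA #1 libraries lay just below the lowest control, whereas the shRNA #2 libraries stood far above the highest. TXNRD1 rose by 0.65 with shRNA #2 (standard error 0.06, adjusted p = 2.68e-06), a 1.57-fold increase. The fall of 0.16 with shRNA #1 (standard error 0.05, adjusted p = 0.0244) was lost without NS replicate 2, NS replicate 3 or shRNA #1 replicate 3, where adjusted p was 0.06, 0.0756 and 0.0835 (from 0.0128 to 0.0887 over 17 alternatives). Between the hairpins the difference was 0.80 (standard error 0.05, adjusted p = 9.53e-08 from edgeR).

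SRXN1, sulfiredoxin, which repairs over-oxidized peroxiredoxins, lies on chr20:646615-653200, minus strand, with 2 exons. It had counts of 4176, 4303 and 3892 with NS shRNA and 3684, 3895 and 4005 with shRNA #1, and these groups overlapped. With shRNA #2 it had 5059, 5155 and 5226 beside NS values of 4506, 4671 and 4196, with no overlap. SRXN1 rose by 0.21 with shRNA #2 (standard error 0.06, adjusted p = 0.0076), and its value with shRNA #1 was -0.09 (adjusted p = 0.159). The latter passed without NS replicate 3 (-0.14, adjusted p = 0.0491, up to 0.424 over 17 alternatives). The rise with shRNA #2 was 0.07 (adjusted p = 0.263, from 0.00397 over the alternatives) with total read scaling. The hairpins differed by 0.29 (standard error 0.05, adjusted p = 0.000643 from edgeR). An unnamed gene shares exon sequence with SRXN1 on the same strand in GENCODE v44, and reads in the shared part cannot be told apart.

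**Figure D2:**
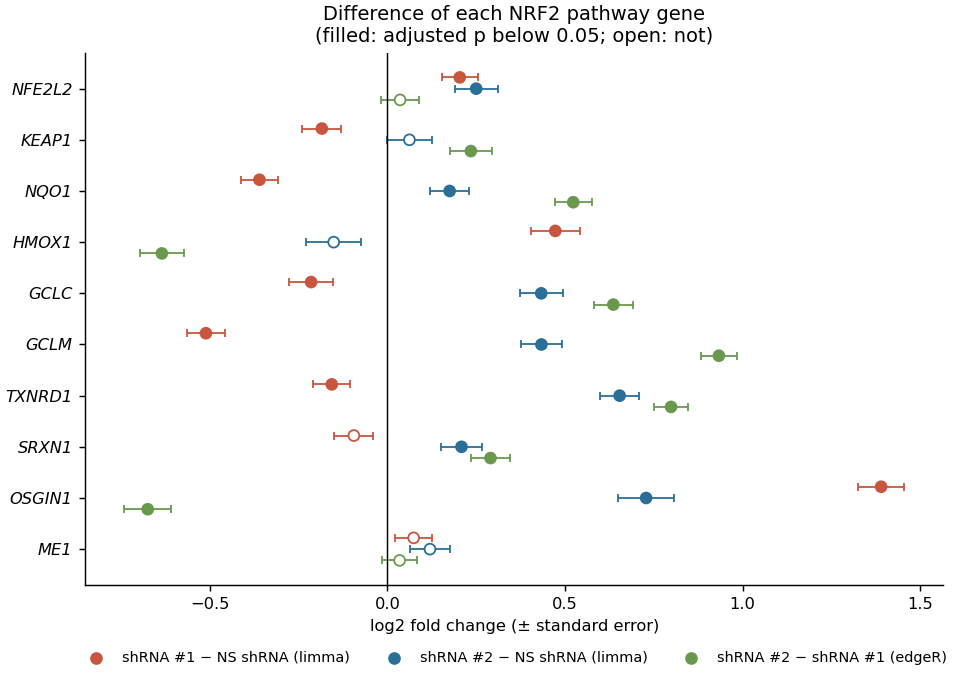
Log2 fold change (x axis) with its standard error for each of the 10 genes: shRNA #1 against NS shRNA and shRNA #2 against NS shRNA from limma, and shRNA #2 against shRNA #1 from edgeR. For edgeR the standard error was derived from the F statistic of the test. Filled points had an adjusted p below 0.05. NQO1, GCLC, GCLM and TXNRD1 lie left of 0 with shRNA #1 and right of it with shRNA #2, and OSGIN1 lies right of 0 with both.

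NQO1, a quinone reductase widely used as a reporter of NRF2 activity, lies on chr16:69706996-69726668, minus strand, with 6 exons, and has the ARE-type sequence shown first above. Its counts were 6366, 6036 and 5855 with NS shRNA and 4517, 4893 and 4812 with shRNA #1. In the other table they were 6870, 6552 and 6313 with NS shRNA and 7191, 7422 and 7666 with shRNA #2. The groups were apart in both tables, downward with shRNA #1 and upward with shRNA #2. NQO1 fell by 0.36 with shRNA #1 (standard error 0.05, adjusted p = 0.00021) and rose by 0.18 with shRNA #2 (standard error 0.05, adjusted p = 0.0151). The rise was the less stable of these calls. It was lost without NS replicate 2, NS replicate 3 or shRNA #2 replicate 3 (adjusted p = 0.0536, 0.0514 and 0.0532), with upper quartile rescaling (0.13, adjusted p = 0.058) and with total read scaling (0.04, adjusted p = 0.525), and adjusted p started at 0.00916 over 17 alternatives. The difference between the hairpins was 0.52 (standard error 0.05, adjusted p = 4.86e-06 from edgeR).

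HMOX1, heme oxygenase 1, degrades heme and is also under the repressor BACH1. It lies on chr22:35380361-35394214, plus strand, with 5 exons. Its counts were 536.9, 543.7 and 596.4 with NS shRNA and 802.3, 775.1 and 749.5 with shRNA #1, all above the controls. With shRNA #2 they were 549.9, 524.8 and 556.2 beside NS values of 579.3, 590.2 and 643.1, all below the controls. HMOX1 rose by 0.47 with shRNA #1 (standard error 0.07, adjusted p = 0.000226). Its value with shRNA #2 was -0.15 (standard error 0.08, adjusted p = 0.108), which passed as a decrease with upper quartile rescaling (-0.20, adjusted p = 0.0435) and with total read scaling (-0.29, adjusted p = 0.00807), and adjusted p reached 0.321 over 17 alternatives. Set against shRNA #1, HMOX1 was lower with shRNA #2, with a log2 difference of -0.64 (standard error 0.06, adjusted p = 4.39e-06 from edgeR). HMOX1 was thus opposite in order to GCLC, GCLM, TXNRD1 and NQO1 between the hairpins.

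OSGIN1, an oxidative stress-induced growth inhibitor, showed the largest fold change of the 10 genes with each hairpin. It lies on chr16:83931311-83966332, plus strand, with 6 exons, and shares exon sequence with MLYCD on the same strand in GENCODE v44. Its counts were 479.3, 493.6 and 495.8 with NS shRNA and 1210, 1284 and 1364 with shRNA #1. They were 517.2, 535.8 and 534.6 with NS shRNA and 921.9, 806.6 and 908.3 with shRNA #2. Both knockdown groups lay clear of the controls, and the control libraries differed little from each other. OSGIN1 rose by 1.39 with shRNA #1 (2.62-fold, standard error 0.07, adjusted p = 1.75e-07) and by 0.73 with shRNA #2 (1.66-fold, standard error 0.08, adjusted p = 1.43e-05). The rise was smaller with shRNA #2, by a log2 difference of -0.67 between the hairpins (standard error 0.07, adjusted p = 4.44e-06 from edgeR).

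ME1, cytosolic malic enzyme, which yields NADPH, lies on chr6:83210402-83431051, minus strand, with 14 exons, and carries the other longer ARE-type sequence shown above. Its counts were 2317, 2369 and 2466 with NS shRNA and 2618, 2423 and 2489 with shRNA #1, with overlap. With shRNA #2 they were 2786, 2881 and 2733 beside NS values of 2500, 2572 and 2659, with no overlap. ME1 was 0.07 higher on the log2 scale with shRNA #1 (standard error 0.05, adjusted p = 0.236) and 0.12 with shRNA #2 (standard error 0.06, adjusted p = 0.0801). The latter passed in a fit of all 9 libraries together (0.12, adjusted p = 0.0391) and was -0.01 (adjusted p = 0.844) with total read scaling. Between the hairpins the difference was 0.03 (standard error 0.05, adjusted p = 0.561 from edgeR).

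Set directly against shRNA #1, shRNA #2 was higher for 6 members (KEAP1, NQO1, GCLC, GCLM, TXNRD1 and SRXN1) and lower for HMOX1 and OSGIN1, while NFE2L2 and ME1 did not pass (edgeR). Among all 14393 genes tested, 31.4% were called higher and 32.5% lower, beside 60% and 20% of the members. The members' median absolute log2 difference was 0.58, against 0.34 over all genes. With total read scaling the median of all genes was -0.15, 33.5% of all called genes were higher instead of 49.2%, and 5 members were higher and 2 lower. ASAH1 was itself lower with shRNA #2 than with shRNA #1, with a log2 difference of -0.89 (standard error 0.05, adjusted p = 6.96e-08). The depth of knockdown and the identity of the hairpin cannot be told apart.

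Compared per length, as RPKM over the reference transcript with library totals scaled by TMM factors, TXNRD1 had the highest level of the 10 in every group. It stood at 254.8 ± 13.1 with NS shRNA, 229.2 ± 9.52 with shRNA #1 and 401.8 ± 13.1 with shRNA #2 (SD, n = 3 each). NFE2L2 came next with 83.8 ± 4.52, 96.7 ± 1.49 and 99.9 ± 5.1. NQO1, KEAP1 and SRXN1 followed in that order in all 3 groups, at 72.6, 57.6 and 49.0 with NS shRNA, and only KEAP1 and SRXN1 in the shRNA #2 libraries overlapped. The rest of the order changed with the hairpin. With NS shRNA it ran GCLM (22.9 ± 1.22), ME1 (21.5 ± 0.623), GCLC (12.1 ± 0.522), HMOX1 (10.8 ± 0.591) and OSGIN1 (7.66 ± 0.141), and GCLM and ME1 overlapped. With shRNA #1 OSGIN1 reached 20.2 ± 1.28 and stood above GCLM (16.1 ± 0.214), HMOX1 (15.1 ± 0.466) and GCLC (10.4 ± 0.477). With shRNA #2 GCLM (31.0 ± 0.82) led these 5 and HMOX1 (9.76 ± 0.3) was last, below OSGIN1 (12.8 ± 0.91).

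**Figure D3:**
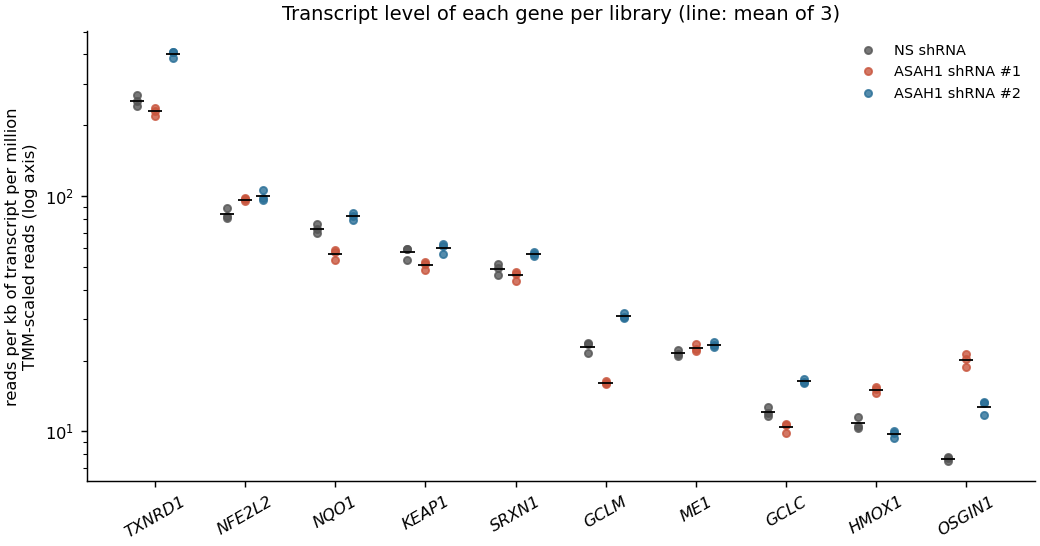
Level per transcript length of each gene (y axis, log scale, RPKM from TMM-scaled totals) in each of the 9 libraries, ordered by the NS shRNA mean. Points are libraries and lines the means of 3. TXNRD1 stands above the other genes in all groups, and OSGIN1, last with NS shRNA, passes GCLM, HMOX1 and GCLC with shRNA #1.

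Short and long transcripts did not weigh alike in all libraries. The median log2 deviation of the shortest quartile of transcripts minus that of the longest ran from -0.07 to 0.23 over the NS libraries, from -0.07 to 0.17 with shRNA #1 and from -0.23 to 0.03 with shRNA #2. The members' own lengths ranged from the 13.4th percentile for HMOX1 to the 70.6th for GCLM. The part of this in the members' differences was not tested.

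The mRNAs of proteins around NRF2 were followed in a list of 18 regulators and partners, all tested. With shRNA #1, 10 were higher and 5 lower (55.6% and 27.8%, beside 32.8% and 33.3% of all genes, median log2 fold change 0.44). With shRNA #2, 6 were higher and 7 lower (33.3% and 38.9%, median -0.10), which is close to the 33.5% and 33.4% of all genes. The mRNAs of the small MAF proteins, with which NRF2 pairs on DNA, rose with both hairpins. MAFF had counts of 2278, 2243 and 2271 with NS shRNA and 6598, 6828 and 7054 with shRNA #1, and 2458, 2435 and 2449 with NS shRNA and 8036, 7232 and 8176 with shRNA #2. It rose by 1.59 (standard error 0.05, adjusted p = 1.06e-08) and 1.67 (standard error 0.06, adjusted p = 1.09e-08). MAFG rose by 0.67 and 1.01, and MAFK by 0.66 and 0.91.

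SQSTM1, the autophagy receptor p62 that can draw KEAP1 away from NRF2, had counts of 34993, 35234 and 31627 with NS shRNA and 65515, 68398 and 74894 with shRNA #1. With shRNA #2 they were 63326, 56556 and 67268 beside NS values of 37759, 38246 and 34101. All knockdown libraries lay far above the controls, and SQSTM1 rose by 1.04 with shRNA #1 (standard error 0.06, adjusted p = 7.73e-07) and by 0.76 with shRNA #2 (standard error 0.07, adjusted p = 5.68e-06). BACH1, the heme-regulated repressor that competes for the same DNA elements, rose by 0.74 and 0.50. CREBBP, an acetyltransferase coactivator, rose by 0.69 and 0.67. BACH2, a repressor related to BACH1, rose by 0.47 with shRNA #1 and fell by 0.47 with shRNA #2, where the call was lost without NS replicate 2 or 3 (adjusted p = 0.0523 and 0.0647, from 0.00399 over 17 alternatives).

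Of the 5 ubiquitin ligase genes of the list, 3 were lower with each hairpin and 0 higher. Over all genes, 33.3% with shRNA #1 and 33.4% with shRNA #2 were called lower, and 32.8% and 33.5% higher. CUL3, the scaffold of the KEAP1 ligase, had counts of 3115, 3012 and 3272 with NS shRNA and 2042, 2088 and 1870 with shRNA #1. In the other table they were 3361, 3269 and 3528 with NS shRNA and 3465, 3552 and 3214 with shRNA #2. CUL3 fell with shRNA #1 (log2 fold change -0.65, standard error 0.06, adjusted p = 9.99e-06), and its value with shRNA #2 was 0.01 (adjusted p = 0.896) with overlapping groups. The hairpins differed by 0.65 (standard error 0.06, adjusted p = 2.66e-06 from edgeR). RBX1, the RING subunit of the same ligase, fell by 0.45 with shRNA #1. Its value with shRNA #2 was -0.24 at an adjusted p of 0.0496, and the call was lost in 6 other settings and without NS replicate 1 or 2 or shRNA #2 replicate 1 or 2 (adjusted p from 0.00367 to 0.191 over 17 alternatives). SYVN1, a ligase of the endoplasmic reticulum, fell by 0.41 and 0.43. DCAF11, a ligase substrate receptor, was at -0.17 with shRNA #1 (adjusted p = 0.0863) and fell by 0.68 with shRNA #2. BTRC, the ligase adaptor that recognises NRF2 marked by GSK3B, was at 0.02 and -0.12 (adjusted p = 0.795 and 0.198). Outside the ligases, the kinase GSK3B fell by 0.37 and 0.30, and DPP3, a KEAP1-binding protein, fell by 0.24 with shRNA #1. With shRNA #2 DPP3 was at -0.09 (adjusted p = 0.306 from limma).

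Between the hairpins, 3 regulators were higher with shRNA #2 than with shRNA #1 (CUL3, MAFG and MAFK, by 0.65, 0.33 and 0.25) and 8 were lower (16.7% and 44.4%, beside 31.4% and 32.5% of all genes). The count of higher regulators was 5 without shRNA #1 replicate 3 or shRNA #2 replicate 2, and that of lower ones 5 without shRNA #2 replicate 3. The largest of the lower differences were those of BACH2 (-0.96), NFE2L1 (-0.65), PALB2 (-0.61), DCAF11 (-0.53) and EP300 (-0.41). NFE2L1, the related factor that controls proteasome genes, was 0.44 with shRNA #1 (adjusted p = 2.04e-05) and -0.20 with shRNA #2 (adjusted p = 0.00438). The EP300 call was lost with DESeq2, with the replicate block and without any of shRNA #1 replicates 1 and 2 and shRNA #2 replicates 1 and 3 (adjusted p from 0.00973 to 0.152 over 13 alternatives). The MAFK call was lost with total read scaling (0.11, adjusted p = 0.124, from 0.000294 over the alternatives).

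**Figure D4:**
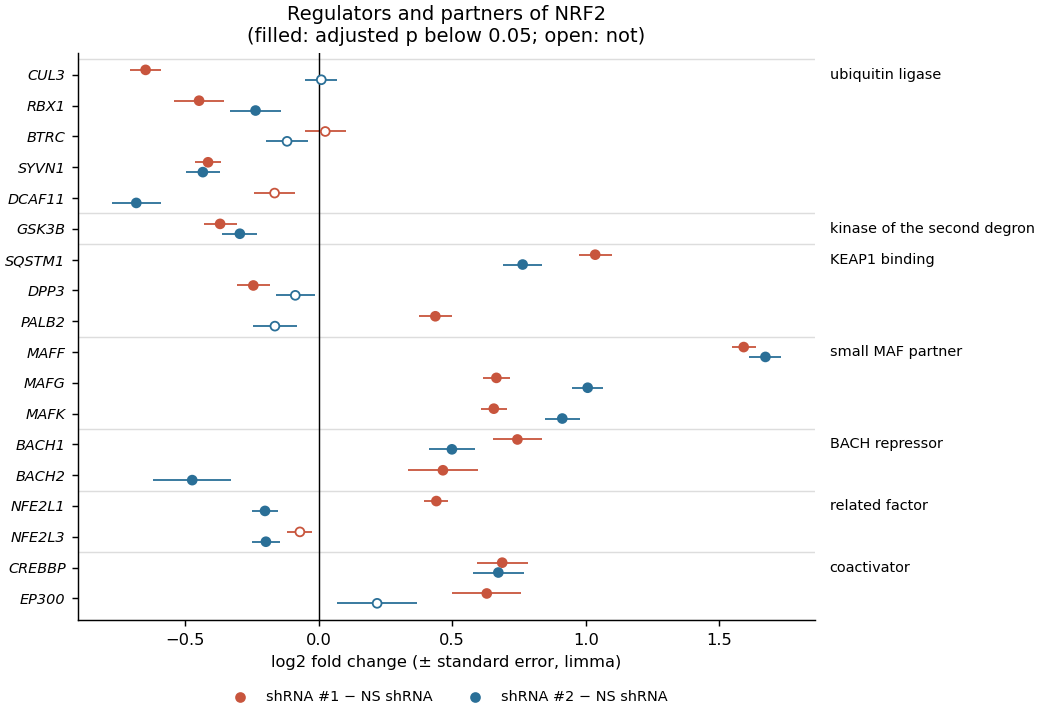
Log2 fold change (x axis, with standard error, limma) of the 18 regulators and partners of NRF2 with each hairpin against NS shRNA, grouped by role at the right. Filled points had an adjusted p below 0.05. The 3 small MAF genes and SQSTM1 lie right of 0 with both hairpins, and CUL3 lies at -0.65 with shRNA #1 and near 0 with shRNA #2.

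A wider list of 37 other NRF2 targets, of which GPX2 had too few reads to be tested, gave the background of the pathway. With shRNA #1, 7 of 36 were higher and 15 lower (19.4% and 41.7%, beside 32.8% and 33.3% of all genes, median log2 fold change -0.13). With shRNA #2, 16 were higher and 13 lower (44.4% and 36.1%, beside 33.5% and 33.4% of all genes, median 0.06). Set directly against shRNA #1, shRNA #2 was higher for 24 and lower for 6 (66.7% and 16.7%, median 0.38, beside 31.4% and 32.5% of all genes).

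SLC7A11, the cystine importer that feeds glutathione synthesis, rose with both hairpins. It had counts of 1594, 1703 and 1700 with NS shRNA and 4972, 5064 and 4757 with shRNA #1, and of 1720, 1848 and 1833 with NS shRNA and 7497, 7419 and 7158 with shRNA #2. Its log2 fold change was 1.57 (2.96-fold, standard error 0.05, adjusted p = 2.04e-08) and 2.03 (4.09-fold, standard error 0.06, adjusted p = 2.86e-09). SLC7A11 therefore rose with shRNA #1 while both subunits of the ligase downstream of cystine fell. FTL, the ferritin light chain, rose by 0.37 and 0.93, and BLVRB, a biliverdin reductase, by 0.48 and 0.86. PGD, of the pentose phosphate pathway, rose by 0.31 and 0.70. ABCC2, an export pump, rose by 0.97 with shRNA #1 and was at -0.07 with shRNA #2 (adjusted p = 0.795 from limma). TRIM16 and TRIM16L rose by 0.87 and 0.81 with shRNA #2. With shRNA #1 they were at 0.13 and 0.11 (adjusted p = 0.0629 and 0.19 from limma). FTL has many processed pseudogenes, and TRIM16 and TRIM16L are near copies of each other, so their counts are uncertain.

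The aldo-keto reductases AKR1C1, AKR1C2 and AKR1C3, which reduce steroids and carbonyls, had the largest decreases of the list with shRNA #1. AKR1C1 had counts of 4578, 4518 and 4095 with NS shRNA and 946.7, 967.1 and 1079 with shRNA #1, and of 4940, 4905 and 4415 with NS shRNA and 7559, 7421 and 7939 with shRNA #2. It fell with shRNA #1 (log2 fold change -2.14, standard error 0.07, adjusted p = 1.75e-08) and rose by 0.69 with shRNA #2 (standard error 0.06, adjusted p = 3.59e-06). AKR1C3 had the same pattern, -1.51 and 0.59. AKR1C2 was lower with both hairpins, at -3.39 and -1.77. Between the hairpins the differences were 2.81 for AKR1C1, 2.09 for AKR1C3 and 1.62 for AKR1C2. The AKR1C genes are close paralogs, so their counts are uncertain where their sequences are alike.

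EPHX1, microsomal epoxide hydrolase, fell with both hairpins (-1.26 and -0.72). IDH1, cytosolic isocitrate dehydrogenase, which yields NADPH, was at -1.21 with shRNA #1 and -0.22 with shRNA #2, and the hairpins differed by 0.97. ALDH3A1, an aldehyde dehydrogenase, was at -2.17 with shRNA #2 (counts of 4.313, 12.63 and 13.19 beside NS values of 55.34, 40.48 and 38.82). With the same hairpin AKR1B10 was at -1.18 (counts of 12.94, 12.63 and 26.37 beside NS values of 42.91, 39.42 and 32.85). ABCB6, a porphyrin transporter, was at -1.27 and SLC48A1, a heme transporter, at -0.97 with shRNA #2. With shRNA #1 ABCB6 also fell (-0.91, adjusted p = 1.11e-05 from limma). ALDH3A1, AKR1B10 and SLC48A1 did not pass with shRNA #1 (adjusted p = 0.0991, 0.622 and 0.701 from limma). The largest lower differences of shRNA #2 from shRNA #1 were those of ALDH3A1 (-2.55), ABCC2 (-1.07), AKR1B10 (-0.97), SLC48A1 (-0.94) and GSS (-0.51).

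**Figure D5:**
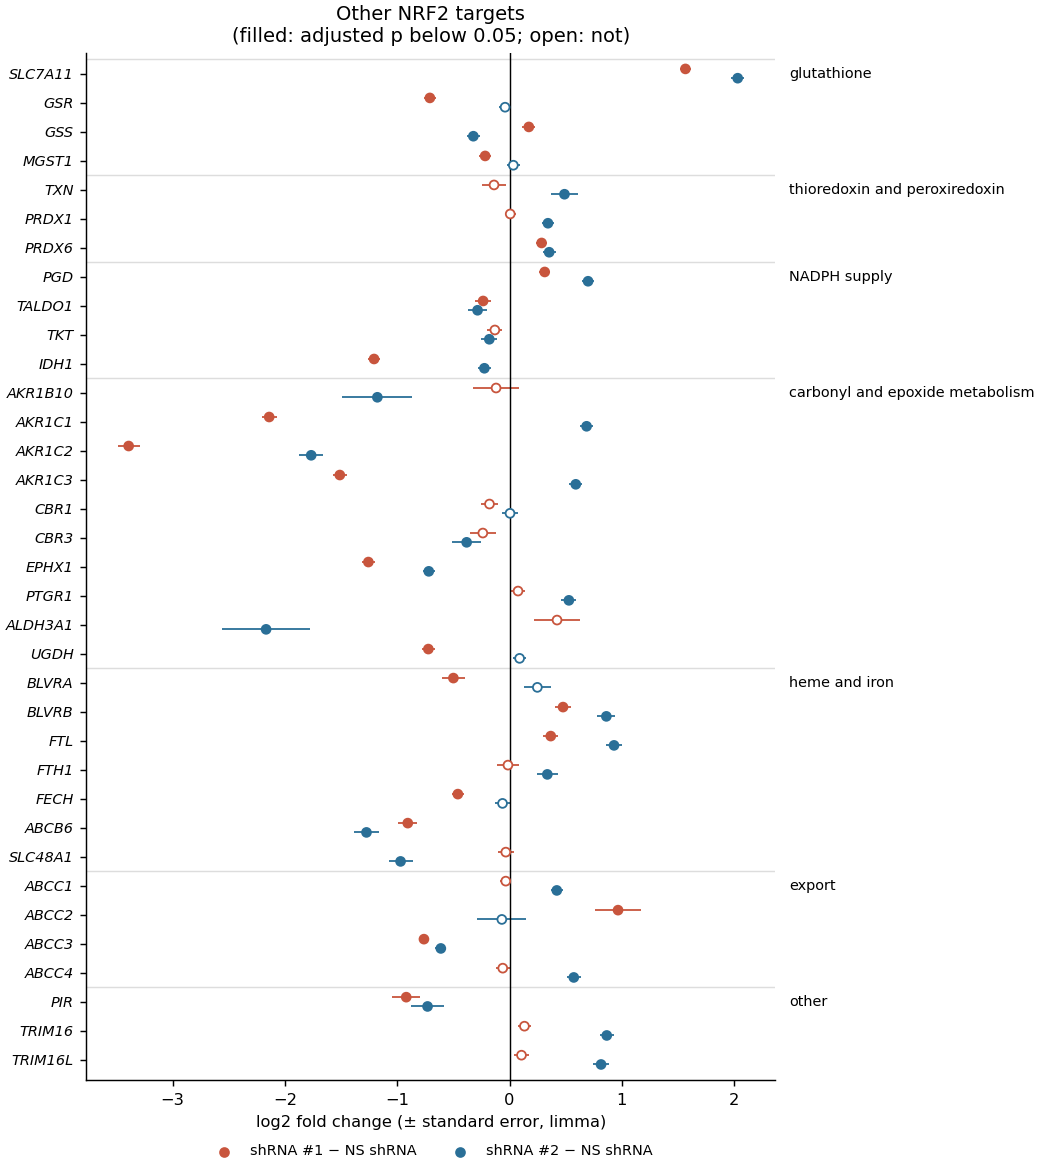
Log2 fold change (x axis, with standard error, limma) of 35 tested genes of the wider NRF2 target list with each hairpin against NS shRNA, grouped by role at the right. Filled points had an adjusted p below 0.05. SLC7A11 lies furthest right with both hairpins, and AKR1C1 and AKR1C3 lie on opposite sides of 0.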

How the data were processed

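RNA of 9 libraries was sequenced after selection with oligo-dT beads, with strand-specific libraries. The authors used Trimmomatic 0.36 for trimming, STAR 2.7.1a for alignment to hg38, HTSeq for counting by gene and DESeq2 1.28 for normalization, the latter once for each hairpin with the NS libraries (versions from the submitters' processing notes). Elsewhere the study's methods give Bowtie2 and RSEM, with TMM and edgeR. The authors deposited a normalized signal, the count of reads divided by a size factor, for 26485 genes, and from their own tests a log2 fold change with its standard error, a p-value and the Wald statistic behind it, an unbounded score, none of which were used here. Of the deposited signals, 100% came out as whole reads within 0.01, so the reads were recovered, and the NS reads of both tables had 0 differences. A total of 28 gene symbols had become dates in a single file and were taken from the other table. A further 1 column name of the deposited data was assigned to no sample, and that column was not used.

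The members and lists were chosen with earlier results of these data known. The wider lists were named by rule: in each comparison up to 5 genes called in each direction, by size of change. Some listed genes are not reported here, although they remain in the counts per list. Each hairpin was compared with NS shRNA by limma 3.58.1 with an intensity trend (R 4.3.3) on log2(value + 1) in a two-sided test of the genes whose mean reached 10, with Benjamini-Hochberg adjustment at 0.05. Fold changes are on that scale. The hairpins were compared by edgeR 4.0.16 (quasi-likelihood test, TMM) in a fit of the reads of all 9 libraries. That test returns no standard error. The standard errors given for the hairpin comparison are the absolute log2 fold change divided by the square root of the test's F statistic. The study's methods call the 3 replicates of a group biological, but no label says that they came from separate cultures, so p-values measure the spread between these libraries. Depth was between 30989598 and 34867548 reads on genes with NS shRNA, 23806003 and 39791698 with shRNA #1 and 35653318 and 49659106 with shRNA #2.

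Alternatives were edgeR and DESeq2 1.42.0 on the recovered reads, pseudocounts of 0.1 and 5, a minimum mean of 50 or none, limma with no trend, rescaling to the upper quartile, a joint fit of the 9 libraries, a block for the replicate number, leaving out each library and, added after the data had been seen, scaling by total reads. Positions are from GENCODE v44 and sequences from hg38 at RefSeq (GRCh38.p14) starts, all 35116 windows matching the RefSeq table. The authors' UCSC gene models were not used here. Tables and plots were made with Python 3.11.15, pandas 2.3.3 and matplotlib 3.10.9.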

Additional observations from a re-analysis of the deposited data

Results flagged for a closer look

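The effects of the hairpins differed by edgeR's direct test for 8 of the 10 members. Among all 14393 genes tested, 31.4% were called higher and 32.5% lower, so most genes differed as well. The log2 difference of shRNA #2 from shRNA #1 was 0.24 for KEAP1, 0.52 for NQO1, 0.64 for GCLC, 0.93 for GCLM, 0.80 for TXNRD1 and 0.29 for SRXN1, and -0.64 for HMOX1 and -0.67 for OSGIN1. NQO1, GCLC, GCLM and TXNRD1 passed the test against NS shRNA in opposite directions with the hairpins, but the fall of TXNRD1 with shRNA #1 and the rise of NQO1 with shRNA #2 were each lost in 3 other settings and in 3 fits with a library left out, and the fall of GCLC with shRNA #1 in 1 setting. In the wider lists AKR1C1 (difference 2.81), AKR1C3 (2.09), GSS (-0.51), BACH2 (-0.96) and NFE2L1 (-0.65) also passed in opposite directions. The fall of BACH2 was lost in 2 fits with a library left out. GSS was at 0.17 with shRNA #1 (adjusted p = 0.0248) and -0.32 with shRNA #2 (adjusted p = 0.000442, both from limma). The calls of GSS and NFE2L1 against NS shRNA were not followed through the other settings. Nor were the rises of AKR1C1 and AKR1C3 with shRNA #2 and of BACH2 with shRNA #1. The share of all genes that passed in opposite directions with the hairpins was not counted. Groups of 3 libraries were too small for a check for a library far from the others.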

How the results depend on the processing

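Counts of called genes per list stayed within 1.5 times of the reported count in 170 of 174 other settings and in 104 of 108 fits with a library left out. The exceptions were as follows. The number of members lower with shRNA #1 was 2 with the replicate number as a block (instead of 5) and between 3 and 5 with a library left out. With shRNA #2 the number of members lower was 1 with upper quartile rescaling and 1 with total read scaling (instead of 0), and the number higher was 4 with total read scaling (instead of 7). Between the hairpins, the regulators higher ran from 3 to 5 and those lower from 5 to 9 with a library left out, the higher count being 5 without shRNA #1 replicate 3 or shRNA #2 replicate 2 and the lower count 5 without shRNA #2 replicate 3. The 3 members lower with shRNA #1 were found without NS replicate 2. Signs changed only for differences that had not passed: NFE2L2 between the hairpins (-0.04 with upper quartile normalization, -0.10 with total read scaling and from -0.007 without shRNA #2 replicate 2 to 0.065 with a library left out), ME1 between the hairpins (-0.041 and -0.11) and, with total read scaling, KEAP1 (-0.072) and ME1 (-0.014) with shRNA #2. The values of single genes kept their direction and call in 845 checks of other settings and 520 with a library left out, and not in 29 and 20. Except where the setting itself sets it, as the shift of all genes by total read scaling, the cause was not tested.

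The labels give replicate numbers, but none says that same-numbered libraries were handled together. Whether the numbers pair the libraries was not settled. Deviations of same-numbered libraries from their group means correlated between -0.496 and -0.229 (NS and shRNA #1), -0.592 and -0.128 (NS and shRNA #2) and 0.0754 and 0.44 (the hairpins). Those of differently numbered libraries correlated between -0.132 and 0.476, -0.274 and 0.521, and -0.349 and 0.176, in the same order. With the replicate block, 4120 genes were higher and 4117 lower with shRNA #1 (instead of 4700 and 4779) and 4246 and 4280 with shRNA #2 (instead of 4780 and 4758). Under the block KEAP1, GCLC and TXNRD1 with shRNA #1 (adjusted p = 0.0658, 0.0564 and 0.0887) and NQO1 with shRNA #2 (0.084) no longer passed. TXNRD1 with shRNA #1 also missed without a filter (0.051) and without the trend (0.0687). With 3 libraries a group, changes near 0.2 on the log2 scale were at the limit of what passed.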
